A study of Homo sapiens with 6 samples.

Results

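Genes of the extracellular matrix and of its receptors on the cell surface were examined in human hepatocellular carcinoma cells that overexpressed TKT. TKT encodes transketolase, an enzyme of the pentose phosphate pathway. Members were taken by symbol from the table of counts per gene. They were every numbered collagen chain gene, every laminin alpha, beta or gamma chain gene, every integrin alpha or beta chain gene, and FN1, FBN1, LOX, LOXL1, LOXL2, LOXL3, LOXL4 and HPSE. The rule found 77 of 22077 symbols, of which 35 were collagens, 10 laminins and 24 integrins, with the 8 single genes making up the rest. ITGB1P1, counted among the integrins, is a pseudogene of ITGB1. A further 3 symbols that name proteins binding to integrins were set aside. COL3A1, COL4A2, COL6A3, LAMA1, LAMC3, ITGA8 and 8 more genes of these families were not analysed here.

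RNA from 6 cultures was sequenced, 3 with the genotype over-expression and 3 controls with the genotype wt. The overexpressing cells carried the TKT plasmid pTSB02-GFP-PURO according to the study's methods, and the labels do not say whether the controls, titled VC, carried a vector. The labels give the cell line as Hu7, the study's account of the experiment names Huh7 and its methods name HCCLM3, so the cells are called hepatocellular carcinoma cells here. Whether the cells were a pool or a clone is not given in the sources used here. The libraries held 37096156, 31188058 and 32406994 counts on TKT overexpression and 31618541, 30148788 and 33815829 counts in control. The labels call the replicates biosamples and say no more of their origin, so the p-values measure the spread between these cultures, which may be technical.

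Collagens are trimers of alpha chains that form fibrils, networks or fibril-associated bridges, and lysyl oxidases cross-link them outside the cell. Laminins are heterotrimers of an alpha, a beta and a gamma chain and build the basement membrane sheet together with collagen IV. Integrins are pairs of an alpha and a beta chain that bind these proteins and fibronectin and link them to actin, and in liver tumors the matrix comes both from tumor cells and from stellate cells.

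The label of liver carcinoma cells was compared with marker genes. AFP, the fetal albumin-like protein of liver tumors, was the most abundant of 10 hepatocyte and liver carcinoma markers at a mean of 2640 FPKM (fragments scaled by gene length and depth, as deposited), and ALB, albumin, had a mean of 2320 FPKM. APOB, which encodes the main protein of very low density lipoprotein, had at most 10 counts in every culture, so a count near 0 in this table was not read as absence of the transcript. Of the 10 markers, FGB, the fibrinogen beta chain, was called higher and HNF4A, a hepatocyte transcription factor, lower. Markers of other cell types were low or at the level of a few counts, with exceptions. Of 7 stellate cell and fibroblast markers in the table, 4 had at most 10 counts in every culture, namely ACTA2, DES, LRAT and LUM, and the most abundant was PDGFRA at a mean of 0.818 FPKM. These 7 markers summed to 12.68, 13.13 and 12.25 CPM (counts rescaled by TMM to equal library size) on TKT overexpression and to 13.3, 13.07 and 12.34 CPM in control, so the groups overlapped. PECAM1, an adhesion molecule of endothelial cells, was the most abundant of 3 endothelial markers at a mean of 2.31 FPKM, with VWF near 0. LYZ, lysozyme, led the 5 leukocyte markers at a mean of 78.0 FPKM while CD3E and CD68 were near 0, and SOX9 led the 4 biliary markers at 41.6 FPKM with KRT7 and KRT19 near 0.

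The leukocyte list moved with the groups. It summed to 126.6, 122.6 and 129.2 CPM on TKT overexpression and to 153.7, 161.4 and 163.5 CPM in control, which is the fall of LYZ (log2 fold change -0.35, SE 0.05, adjusted p = 1.67e-05 in edgeR's quasi-likelihood test with Benjamini-Hochberg adjustment). The part of this list in the results below was not tested, and in such bulk cultures fewer cells of a type and less RNA per cell cannot be told apart.

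TKT itself set the groups apart. Its values were 9399, 9550 and 9390 CPM on TKT overexpression and 497.2, 469.4 and 514.7 CPM in control, without overlap, a log2 fold change of 4.26 (SE 0.04). Counts do not separate the introduced from the endogenous transcript.

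Of the 77 members, 51 had at least 10 counts in at least 3 of the 6 cultures and were tested among 14309 genes. With TKT overexpression 9 members rose and 5 fell, called at an adjusted p below 0.05 in edgeR's quasi-likelihood test with Benjamini-Hochberg adjustment over all 14309 genes. LAMA3, LAMB1, FN1, FBN1, COL12A1, COL14A1, LOXL2, LOXL4 and HPSE rose, and COL26A1, COL27A1, LOX, ITGA2 and ITGA6 fell. Over all genes tested, 5.65% were called higher, 4.93% lower and 10.6% in either direction, against 17.6%, 9.80% and 27.5% of the 51 members. The members were chosen with earlier results of these data known. Many calls fell on the genes named singly, with FN1, FBN1 and HPSE higher and 2 higher and 1 lower of 4 tested lysyl oxidases. Calls were 2 higher and 2 lower of 19 tested collagens, 2 higher of 8 laminins and 2 lower of 17 integrins. Abundant genes are called more often, and at a mean above 10 CPM 15.0% of 8677 genes were called, against 11 of 27 members (40.7%). At a mean of 10 CPM or under 3.75% of 5632 genes were called, against 3 of 24 members (12.5%). The values of the groups did not overlap in 23 of 51 tested members, against 27.9% of all tested genes. At an unadjusted p under 0.05 in the same edgeR test, 13 members were higher and 9 lower, beside 11.7% and 11.9% of all genes tested. The 13 include COL4A6, which passed the count filter through 1 group and had to be higher there to be tested. DESeq2 at an adjusted p under 0.05 called 9 members higher and 6 lower, beside 5.73% of those genes in each direction.

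Most of these changes were small. At an absolute log2 fold change over 1, the threshold of the study, 3 members were called, LAMA3, LOXL2 and HPSE, all higher, against 0.748% of all tested genes. DESeq2, the tool named by the study, called 2 members at this threshold, LAMA3 and LOXL2, and gave HPSE no adjusted p. In edgeR without control replicate 1 the number fell to 1, and with limma on log2(FPKM + 1) to 0. The other 11 called members had log2 fold changes between -0.32 and 0.84. The median over the 51 tested members was 0.03, beside 0.00 over all genes tested. Summed over members, the cultures held 6752, 6599 and 6869 CPM on TKT overexpression and 6422, 6710 and 6169 CPM in control, and these groups overlapped. Precision followed abundance, with a median SE of 0.0538 for the 27 members above 10 CPM and of 0.316 for the 24 others, so small changes were not detectable among the low members.

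**Figure D1:**
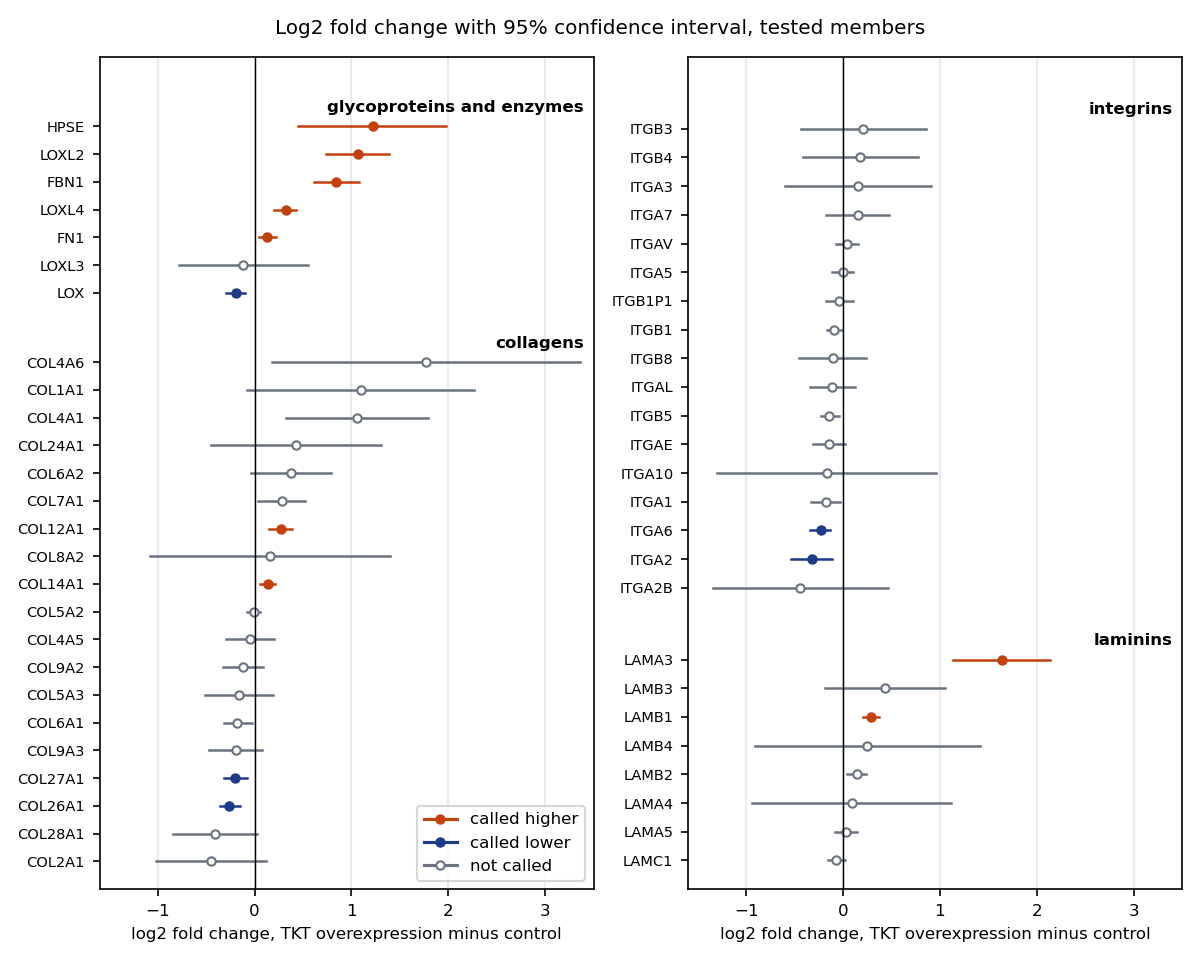
Log2 fold change between TKT overexpression and control (x axis) with its 95% confidence interval (lines) for each of the 51 tested members, by family. Filled points are the 9 members called higher and the 5 called lower, open points the others, and intervals widen for low members such as COL4A6 and COL8A2.

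Among the 77 members, few genes took most of the counts. This covers neither the family genes not analysed here, such as COL3A1, COL4A2 and LAMA1, nor transcripts whose counts were near 0 for other reasons. By mean FPKM of the control cultures, 15 of the 77 members were above 10 FPKM, 10 lay between 1 and 10 FPKM and 52 were at 1 FPKM or under. FN1, which encodes fibronectin, stood highest with 160, 153 and 167 FPKM on TKT overexpression and 145, 155 and 137 FPKM in control. It took between 38.6% and 41.4% of all counts on members, and the 10 members with the most counts took between 86.4% and 87.6%. COL5A2, the alpha 2 chain of fibril-forming collagen V, followed at 75.0 ± 2.14 FPKM in control (SD, n = 3). COL5A1, the chain with which it assembles, had 2 counts in each of 2 cultures and 0 in the other 4. The order of control levels went on with ITGB1P1, ITGB1, COL14A1, COL26A1, LAMC1, LAMB1, LOX and ITGB5. Neighbors in this order had separate control values except ITGB1P1 with ITGB1 and COL26A1 with LAMC1, whose control cultures overlapped. The order rests on the gene lengths behind the deposited FPKM, which for some genes differ from the exon bases in GENCODE 29, as with 14.612 kb against 6.011 kb for ITGB1 and 18.657 kb against 8.140 kb for LAMB1. With exon bases instead, a choice made after the data were seen, ITGB1 would stand above COL5A2 and LAMB1 above COL14A1 and LAMC1, with FN1 still the highest. ITGB1P1 had no exon length in that annotation and was left out of this order.

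**Figure D2:**
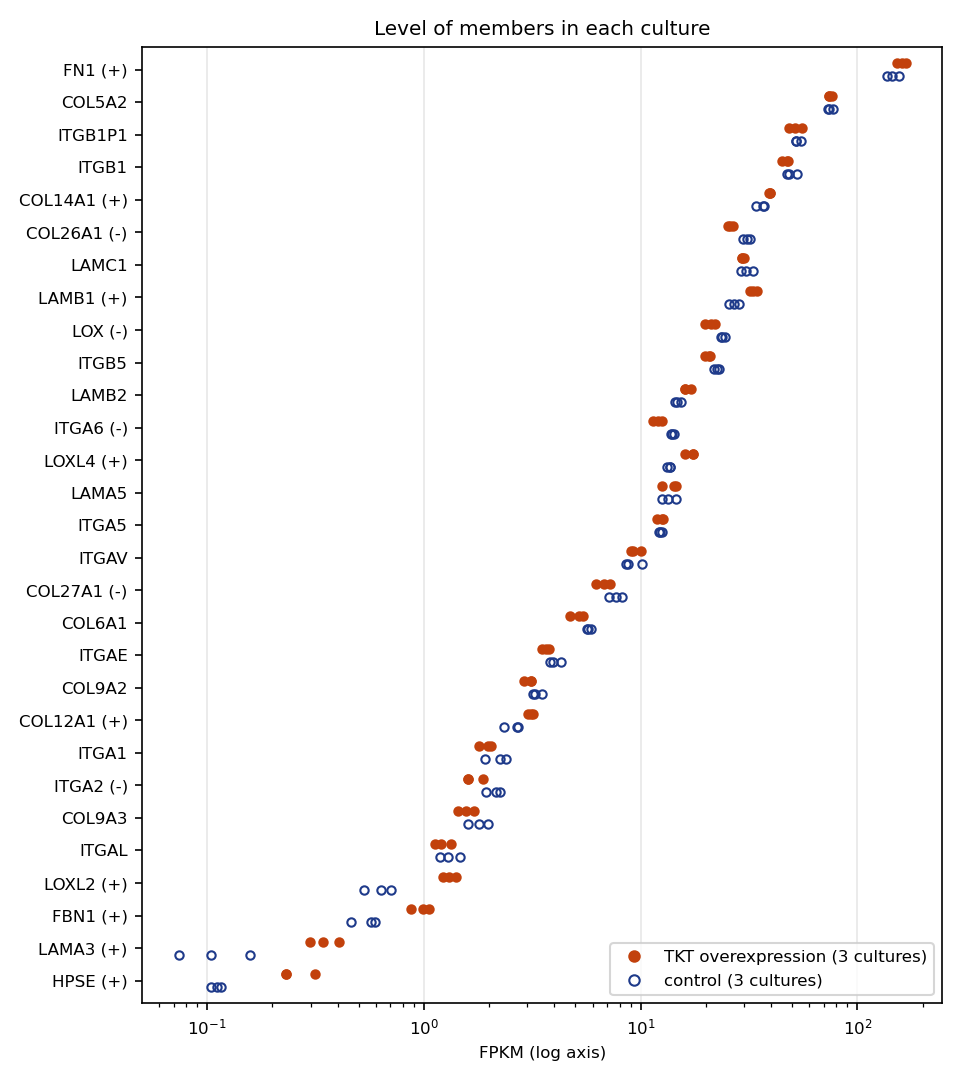
FPKM (x axis, log scale) in each culture for the members above 1 FPKM in control and for every called member, ordered by control mean. Members called higher carry a plus and members called lower a minus, and FN1 lies between 137 and 167 FPKM while LAMA3 and HPSE lie below 1.

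Laminins rose in part. Of 10 laminin genes, 8 were tested, with 2 higher and none lower, beside 5.65% and 4.93% of all genes tested. The median log2 fold change was 0.19. At an unadjusted p under 0.05 in the same edgeR test 3 were higher and 0 lower, beside 11.7% and 11.9% of all genes. DESeq2 at an adjusted p under 0.05 also called 3 higher and 0 lower, beside 5.73% of all genes in each direction. LAMB1, the beta 1 chain of most basement membrane laminins, had 614.9, 603.5 and 631.5 CPM on TKT overexpression and 506.4, 528.3 and 479.4 CPM in control. Every overexpressing culture was above every control culture. The difference was 1.22-fold (log2 fold change 0.29, SE 0.04, adjusted p = 2.32e-05 in edgeR's quasi-likelihood test with Benjamini-Hochberg correction), and it was called in all 15 alternative fits. Exons of LAMB1 overlap those of DLD on the opposite strand over 70 bases.

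LAMA3 had the largest log2 fold change of the called members in the main edgeR fit. It encodes the alpha 3 chain of laminin-332, the laminin of epithelial anchoring structures. Its values were 4.343, 5.057 and 5.807 CPM on TKT overexpression and 1.082, 2.272 and 1.52 CPM in control, from 156 to 191 and from 34 to 69 counts. The groups did not overlap, and the spread among the controls was the wider in relative terms. The difference was 3.12-fold (log2 fold change 1.64, SE 0.24, 95% confidence interval 1.14 to 2.14, adjusted p = 8.49e-05 in the same edgeR test), and leaving out control replicate 2 moved the log2 fold change to 1.96 and leaving out control replicate 1 to 1.42. With limma on log2(FPKM + 1), where the pseudocount shrinks the changes of low genes, it was 0.28. This was below the 0.51 of LOXL2, the 0.36 of FBN1 and the 0.3 of LOXL4, and the same as the 0.28 of LAMB1.

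The chains that assemble with LAMB1 and LAMA3 did not pass the test. LAMC1, the gamma 1 partner of LAMB1, had a log2 fold change of -0.07 (95% confidence interval -0.15 to 0.02) and LAMA5, an alpha partner, one of 0.03 (-0.08 to 0.14). The ratio of LAMB1 to LAMC1 in FPKM was 1.13, 1.09 and 1.15 on TKT overexpression and 0.879, 0.868 and 0.880 in control. No ratio of one group reached the range of the other, given as a description with no test. The gene lengths behind the FPKM set how high the ratio stands, so it does not say which chain is the more abundant. LAMB2, the beta 2 chain, had 110.4, 112.1 and 115.6 CPM against 105.8, 100.6 and 100.1 CPM, with no overlap but an adjusted p of 0.058 in edgeR's quasi-likelihood test with Benjamini-Hochberg adjustment. For laminin-332, LAMB3 had a log2 fold change of 0.43 (95% confidence interval -0.19 to 1.05). LAMA2 had 1 count on TKT overexpression and 4 in control, and LAMA4 and LAMB4 lay below 0.1 FPKM in every culture.

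Promoters of the members were searched for 3 motifs on both strands, TGANTCA (bound by AP-1), CACGTG (the E-box bound by MYC and related factors) and GGAATG (bound by TEAD). RefSeq windows of 250 bases upstream of the transcription start were at hand for 58 of the 77 members, 78 windows in all, from assembly GRCh38.p14. TGANTCA occurred in 3.85% of the 78 windows and in 6.59% of 34788 windows of all genes. CACGTG occurred in 2.56% and 6.31%, and GGAATG in 10.26% and 11.89%. The windows with TGANTCA belonged to COL10A1, LAMA3 and LAMB3, and those with CACGTG to HPSE and ITGA6. The matches of COL10A1 read TGAATCA and TGATTCA, which are not the AP-1 sites named above. Those with GGAATG belonged to COL10A1, COL12A1, FBN1, ITGA10, ITGA5, ITGB1, LAMA2 and LOXL3. These letters are not shown to be bound here, and no match says only that the letters are not in the window.

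The windows of LAMA3 and LAMB3 are printed because both chains belong to laminin-332 and hold TGANTCA. The LAMA3 window lies at chr18:23872770-23873019 on the plus strand, at a start inside the gene, which spans 23689443 to 23956222, and holds 2 matches that begin 125 and 69 bases before the start. The LAMB3 window lies at chr1:209651375-209651624 on the minus strand, also at a start inside the gene, which spans 209614870 to 209652466, and holds 1 match 67 bases before the start. Capitals mark the matches, and each sequence reads 5′ to 3′ toward the start of transcription.
LAMA3: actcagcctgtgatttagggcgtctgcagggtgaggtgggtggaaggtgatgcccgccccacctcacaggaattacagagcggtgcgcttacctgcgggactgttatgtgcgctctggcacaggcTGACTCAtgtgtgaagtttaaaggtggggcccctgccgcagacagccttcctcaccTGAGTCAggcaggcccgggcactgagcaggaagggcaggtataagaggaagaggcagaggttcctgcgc
LAMB3: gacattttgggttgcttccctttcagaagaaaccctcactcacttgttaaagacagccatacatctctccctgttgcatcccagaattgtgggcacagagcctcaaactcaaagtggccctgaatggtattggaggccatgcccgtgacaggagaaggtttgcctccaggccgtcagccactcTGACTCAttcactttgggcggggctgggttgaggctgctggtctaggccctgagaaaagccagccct

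Fibronectin and fibrillin both rose. FN1, the most abundant member, had 2772, 2678 and 2843 CPM on TKT overexpression and 2513, 2660 and 2381 CPM in control. The groups did not overlap, but overexpression replicate 2 and control replicate 2 lay close together. The difference was 1.10-fold (log2 fold change 0.13, SE 0.04, adjusted p = 0.0357 in edgeR's quasi-likelihood test with Benjamini-Hochberg adjustment). The call was lost in 7 of 15 alternative fits, among them those without overexpression replicate 1 or 3 and without control replicate 1 or 3, where the adjusted p of the same test reached 0.184.

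FBN1 encodes fibrillin-1, the backbone of microfibrils. Its values were 19.8, 18.64 and 15.99 CPM on TKT overexpression and 8.623, 11.03 and 10.67 CPM in control. All overexpressing cultures lay above all controls. The difference was 1.80-fold (log2 fold change 0.84, SE 0.11, adjusted p = 3.13e-05 in edgeR's quasi-likelihood test with Benjamini-Hochberg adjustment). It was called in all 15 alternative fits, with log2 fold changes between 0.36 on log2(FPKM + 1) and 0.93.

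Lysyl oxidases, the enzymes that cross-link collagen and elastin, moved in opposite directions. LOXL2 had 7.824, 7.488 and 8.3 CPM on TKT overexpression and 3.214, 3.786 and 4.261 CPM in control. The groups were apart by more than their ranges, and the difference was 2.09-fold (log2 fold change 1.07, SE 0.16, adjusted p = 7.99e-05 in edgeR's quasi-likelihood test with Benjamini-Hochberg adjustment). LOXL4, at 57.92, 63.89 and 62.05 CPM against 48.4, 49.13 and 49.91 CPM, was 1.25-fold higher without overlap (log2 fold change 0.32, SE 0.05, adjusted p = 4.78e-04 in the same edgeR test). LOX, the founding and most abundant enzyme of the family, instead fell, with 118.5, 112.4 and 122.2 CPM on TKT overexpression and 134, 137.1 and 132.7 CPM in control. Its groups did not overlap (log2 fold change -0.19, SE 0.05, adjusted p = 0.0082 in the same edgeR test). The call of LOX was lost in 3 of 15 alternative fits, with limma on log2(FPKM + 1) and on log2(FPKM + 0.1) and in edgeR blocked by replicate number, at an adjusted p of 0.0602, 0.0574 and 0.0609.

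Per length, the enzymes differed widely in level. In control the mean FPKM was 23.9 ± 0.604 for LOX, 13.6 ± 0.225 for LOXL4 and 0.624 ± 0.0867 for LOXL2 (SD, n = 3 each). The ratio of LOXL4 to LOX in FPKM was 0.761, 0.885 and 0.790 on TKT overexpression and 0.562, 0.557 and 0.585 in control. No ratio of one group reached the range of the other, given without a test. LOXL3 had a log2 fold change of -0.12 (95% confidence interval -0.78 to 0.55) and overlapping groups, and LOXL1 had at most 10 counts in any culture and was not tested. Exons of LOX overlap those of SRFBP1 on the opposite strand over 138 bases, those of LOXL2 overlap ENTPD4 on the same strand over 120 bases, and those of LOXL3 overlap HTRA2 on the opposite strand over 14.33% of their length. Reads in these overlaps were not assigned to a gene here, and the strand setting of the counting is not given in the sources used here.

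HPSE encodes heparanase, which cuts heparan sulfate chains of matrix proteoglycans. It had 44, 37 and 52 counts on TKT overexpression and 18, 16 and 20 in control, or 1.187, 1.199 and 1.581 CPM against 0.5728, 0.5268 and 0.5959 CPM. The groups did not overlap, with overexpression replicate 3 the highest. The difference was 2.33-fold (log2 fold change 1.22, SE 0.37, adjusted p = 0.0364 in edgeR's quasi-likelihood test with Benjamini-Hochberg adjustment). The call did not outlast the loss of any single culture, with adjusted p-values between 0.0581 and 0.152 in the same test.

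Of the called members with CACGTG, HPSE rose and ITGA6 fell, and their windows are printed for that reason. The HPSE window, 1 of 3 for the gene, lies at chr4:83335154-83335403 on the minus strand with its match 31 bases before the start. The ITGA6 window, 1 of 2, lies at chr2:172427086-172427335 on the plus strand with its match 101 bases before the start. Capitals mark the matches.
HPSE: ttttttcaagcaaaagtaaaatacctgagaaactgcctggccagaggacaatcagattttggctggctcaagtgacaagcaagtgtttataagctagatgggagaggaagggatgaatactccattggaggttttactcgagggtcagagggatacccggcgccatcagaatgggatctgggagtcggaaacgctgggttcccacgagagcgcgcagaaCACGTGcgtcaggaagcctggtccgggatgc
ITGA6: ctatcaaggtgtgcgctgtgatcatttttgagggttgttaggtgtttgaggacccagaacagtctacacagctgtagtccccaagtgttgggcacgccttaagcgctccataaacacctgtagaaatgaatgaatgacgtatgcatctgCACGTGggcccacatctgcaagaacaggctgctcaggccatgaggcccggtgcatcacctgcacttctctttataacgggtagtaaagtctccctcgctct

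The calls among collagens were small and went both ways. Of 35 collagen genes 19 were tested, with 2 higher and 2 lower, beside 5.65% and 4.93% of all genes tested, and a median log2 fold change of -0.01, which was 0.00 with upper-quartile scaling. At an unadjusted p under 0.05 in the same edgeR test 5 were higher, COL4A6 with its filter bias among them, and 3 lower, beside 11.7% and 11.9% of all genes, and DESeq2 called 2 higher and 2 lower, beside 5.73% in each direction. COL12A1 and COL14A1, which rose, bind to the surface of fibrils. The other tested genes of that class, COL9A2 and COL9A3, had log2 fold changes of -0.12 and -0.19 and were not called, and the class median was 0.01. COL12A1 had 60.19, 58.02 and 58.43 CPM on TKT overexpression and 51.71, 50.31 and 44.78 CPM in control. Its groups did not overlap (log2 fold change 0.27, SE 0.06, adjusted p = 0.00435 in edgeR's quasi-likelihood test with Benjamini-Hochberg adjustment). The call was lost in 2 of 15 alternative fits, with limma on log2(FPKM + 1) and on log2(FPKM + 0.1), at an adjusted p of 0.0956 and 0.0969. COL14A1, the most abundant of this class at 35.8 ± 1.60 FPKM in control (SD, n = 3), had 406.4, 404.6 and 398.1 CPM against 375.3, 375 and 350 CPM. All overexpressing cultures were higher, by 1.10-fold (log2 fold change 0.14, SE 0.04, adjusted p = 0.0192 in the same edgeR test). The call of COL14A1 was lost in 6 of 15 alternative fits, with an adjusted p of 0.111 in the same test without control replicate 3, 0.104 without overexpression replicate 1 and 0.0547 without overexpression replicate 2.

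COL26A1 and COL27A1 fell. COL26A1, a collagen with an EMI domain, had 83.04, 79.32 and 79.05 CPM on TKT overexpression and 100.3, 91.34 and 97.08 CPM in control. The groups did not overlap, and the call (log2 fold change -0.26, SE 0.05, adjusted p = 0.00192 in edgeR's quasi-likelihood test with Benjamini-Hochberg adjustment) held in all 15 alternative fits. COL27A1, a fibril-forming collagen of cartilage, had 95.12, 88.79 and 100.3 CPM against 109.4, 114.6 and 101.7 CPM. Overexpression replicate 3 and control replicate 3 were close to each other (log2 fold change -0.20, SE 0.06, adjusted p = 0.0247 in the same edgeR test), and 7 of 15 alternative fits did not call it. Without overexpression replicate 1 or 2 or control replicate 1 or 2 its adjusted p in that test was 0.0802, 0.106, 0.0894 and 0.0891.

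COL5A2, the most abundant collagen, showed no detectable change. It had 543.7, 549.9 and 551.1 CPM on TKT overexpression and 546.4, 564.5 and 544.1 CPM in control, with overlap and a log2 fold change of -0.01 (95% confidence interval -0.08 to 0.06). Of the network-forming collagen IV chains, COL4A5 was the most abundant, at 0.904 ± 0.0472 FPKM in control (SD, n = 3), with a log2 fold change of -0.05. COL4A1 had 86, 46 and 80 counts on TKT overexpression and 40, 39 and 15 in control. Its groups did not overlap (2.09-fold, log2 fold change 1.06, 95% confidence interval 0.33 to 1.79), but the adjusted p was 0.0575 in edgeR's quasi-likelihood test with Benjamini-Hochberg correction and passed 0.05 in 4 of 14 alternative fits that gave a value.

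The low collagens need care. COL4A6 had 10, 18 and 16 counts on TKT overexpression and 6, 6 and 0 in control and passed the filter through the former group alone. Its log2 fold change of 1.77 (95% confidence interval 0.18 to 3.36) was not called. COL1A1, the main chain of collagen I in fibrous tissue, had 25, 8 and 29 counts against 11, 6 and 10, with overlap, and its partner COL1A2 had 2 counts in each of 2 cultures. COL18A1, the source of endostatin, had at most 3 counts in a culture. COL6A1 had 30.08, 26.52 and 28.46 CPM against 31.79, 32.66 and 31.79 CPM, with no overlap but no call (log2 fold change -0.18, 95% confidence interval -0.32 to -0.03).

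**Figure D3:**
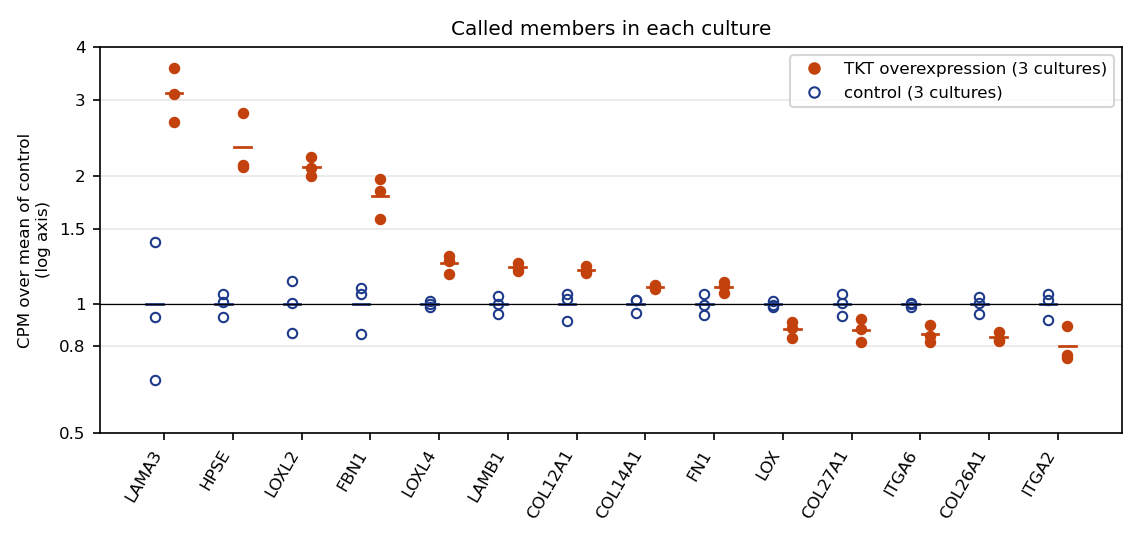
CPM of the 14 called members in each culture divided by the mean of the 3 control cultures (y axis, log scale), with short lines for the group means. LAMA3, HPSE, LOXL2 and FBN1 lie well above 1 on TKT overexpression, and the other called members lie much closer to 1.

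Integrins showed no rise that passed the test. Of 24 integrin symbols 17 were tested, with 2 lower and none higher, beside 4.93% and 5.65% of all genes tested. The median log2 fold change was -0.10, or -0.09 with upper-quartile scaling. At an unadjusted p under 0.05 in the same edgeR test 5 were lower and 0 higher, beside 11.9% and 11.7% of all genes. DESeq2 called 3 lower and 0 higher, beside 5.73% of all genes in each direction. ITGA6, the alpha chain of the laminin receptors with beta 1 and beta 4, had 84.25, 77.09 and 79.23 CPM on TKT overexpression and 94.57, 95.12 and 93.11 CPM in control. Every overexpressing culture was below every control (log2 fold change -0.23, SE 0.05, adjusted p = 0.00401 in edgeR's quasi-likelihood test with Benjamini-Hochberg correction), and the call held in all 15 alternative fits. ITGA2, the alpha chain of a collagen receptor with beta 1, had 14.84, 12.71 and 12.53 CPM against 15.37, 17.65 and 17.13 CPM. Overexpression replicate 1 lay just below control replicate 1 (log2 fold change -0.32, SE 0.10, adjusted p = 0.0469 in the same edgeR test). This call was the weakest, lost in 9 of 15 alternative fits, among them upper-quartile scaling, with an adjusted p of 0.0584 in the same test, and the fits without overexpression replicate 2 or 3 or any of the controls, with values between 0.0519 and 0.156.

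ITGB1, the beta chain shared by most matrix receptors and the integrin gene with the most counts, had 688.2, 660.7 and 692.8 CPM on TKT overexpression and 713.9, 767.3 and 693.2 CPM in control. The highest overexpressing and the lowest control culture all but touched, and the log2 fold change of -0.09 (95% confidence interval -0.17 to -0.01) was not called, with an adjusted p of 0.155 in edgeR's quasi-likelihood test with Benjamini-Hochberg adjustment. ITGB1P1, its pseudogene, was listed at 51.4, 48.4 and 55.3 FPKM on TKT overexpression and 52.3, 54.9 and 52.2 FPKM in control. Its sequence is near to that of ITGB1, so the reads may come from either and both values are uncertain. ITGB4, the other partner of ITGA6, had a log2 fold change of 0.18 (95% confidence interval -0.41 to 0.77).

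Among receptors of the RGD sequence in fibronectin and vitronectin, none of the 3 tested alpha chains was called by edgeR's quasi-likelihood test or DESeq2. In the same edgeR test 0 had an unadjusted p under 0.05. Over all genes tested, edgeR called 5.65% higher and 4.93% lower, and DESeq2 5.73% in each direction. At an unadjusted p under 0.05, 11.7% were higher and 11.9% lower. The lack of a call among 3 chains was therefore not read as a result about these receptors. ITGA5, which pairs with beta 1 as the main fibronectin receptor, had a log2 fold change of 0.00 (95% confidence interval -0.11 to 0.10) while its ligand FN1 was called higher. ITGAV had 0.04 (-0.07 to 0.16). ITGB5, a partner of ITGAV, had 129.8, 138.1 and 133.3 CPM against 148.5, 141 and 151.1 CPM. No overexpressing culture reached the controls, but the adjusted p was 0.0563 in edgeR's quasi-likelihood test with Benjamini-Hochberg correction, and 5 of 15 alternative fits called it. The collagen receptor chain ITGA1 had a log2 fold change of -0.18 with overlapping groups. Of the integrins known from leukocytes, ITGAM, ITGA4 and ITGB2 were not tested, ITGAL stood at 1.31 ± 0.136 FPKM and ITGAE at 4.02 ± 0.265 FPKM in control (SD, n = 3 each), and neither of these was called. ITGAE shares 6.41% of its exon bases with HASPIN on the opposite strand.

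Some members lie side by side in the genome. By GENCODE 29 on GRCh38, some pairs among 76 members with coordinates were within 50 kb of each other. LAMB1 and LAMB4 lie 20.3 kb apart on chromosome 7, with log2 fold changes of 0.29 and 0.25 but a 95% confidence interval of -0.91 to 1.41 for LAMB4. ITGA1 and ITGA2, both collagen receptor chains, lie 30.1 kb apart on chromosome 5, at -0.18 and -0.32. COL4A5 and COL4A6 start head to head on the X chromosome with 346 bases between them, at -0.05 and 1.77, and the head-to-head pair COL4A3 and COL4A4 was not tested.

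Genes that act with the members were compared as lists. Of 24 tested genes of collagen biosynthesis and secretion, 3 were higher and 2 lower, beside 5.65% and 4.93% of all genes tested. The median log2 fold change was 0.01, and DESeq2 called 2 higher and 2 lower, beside 5.73% of all genes in each direction. TLL2 and TLL1, proteases of the BMP1 family that process collagen precursors, rose by 1.14 (SE 0.34) and 0.48 (SE 0.14) on the log2 scale, and P3H2, a prolyl 3-hydroxylase, by 0.29 (SE 0.07). PLOD1, a lysyl hydroxylase, and COLGALT1, which adds galactose to collagen, had log2 fold changes of -0.16 and -0.17 (SE 0.04 each). Their values did not overlap between the groups, as with COLGALT1 at 495.1, 479.9 and 483.7 CPM against 564.5, 528.8 and 546.9 CPM.

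Of 15 tested genes of the basement membrane list, 1 was higher and 4 lower, beside 5.65% and 4.93% of all genes tested. The median was -0.09, and DESeq2 called 1 higher and 5 lower, beside 5.73% of all genes in each direction. NID1, nidogen-1, which ties laminin to collagen IV, had 532.2, 525.5 and 529.3 CPM on TKT overexpression and 601.8, 643 and 597.4 CPM in control. The groups were apart (log2 fold change -0.22, SE 0.04, adjusted p = 3.99e-04 in edgeR's quasi-likelihood test with Benjamini-Hochberg adjustment). The laminin receptors DAG1 and BCAM had log2 fold changes of -0.18 and -0.15 (SE 0.04 each), and FRAS1 had -0.17 with overlapping groups. MATN2, matrilin-2, rose by 0.44 (SE 0.12).

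Of these lists, other matrix glycoproteins and integrin ligands had the most calls, with 10 of 24 tested genes higher and 1 lower. The shares over all genes tested were 5.65% and 4.93%. The median of this list was 0.20, and DESeq2 also called 10 higher and 1 lower, beside 5.73% of all genes in each direction. CCN1, an integrin ligand bound to the matrix, had 129.3, 126.8 and 120.7 CPM on TKT overexpression and 65.9, 66.08 and 69.55 CPM in control. No values overlapped (log2 fold change 0.90, SE 0.05, adjusted p = 2.39e-11 in edgeR's quasi-likelihood test with Benjamini-Hochberg adjustment). THBS1, thrombospondin-1, rose by 0.69 (SE 0.04), SPP1, osteopontin, by 0.56 (SE 0.09) and FGB by 0.50 (SE 0.03). FGB is also on the hepatocyte marker list. FGA and FGG, the other fibrinogen chains, were also among the 10 (log2 fold changes 0.50 and 0.37, SE 0.03 and 0.04). So was VTN, vitronectin (0.12, SE 0.04). ADAM15, a membrane protease that binds integrins, was the gene called lower (log2 fold change -0.26, SE 0.05). MFAP2, a microfibril protein, had a larger log2 fold change of -2.94 (95% confidence interval -5.95 to 0.07) but was not called, with an adjusted p of 0.22 in the same edgeR test. It had 0.2428, 0.2269 and 3.375 CPM on TKT overexpression and 9.641, 8.297 and 11.5 CPM in control, without overlap, and overexpression replicate 3 stood apart from the other two.

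Inside the cell, 4 of 27 tested genes of focal adhesions were higher and none lower by edgeR's quasi-likelihood test, with a median of 0.00. At an unadjusted p under 0.05, 7 were higher and 2 lower, and DESeq2 called 4 higher and 1 lower. Those called higher by edgeR included TNS1 (log2 fold change 0.39, SE 0.11), VCL (0.16, SE 0.04) and TNS3 (0.16, SE 0.04), which link integrins to actin. Of 10 tested proteoglycan genes, SDC4, a heparan sulfate carrier of focal adhesions, was higher (0.22, SE 0.04), with a median of -0.05. In this list DESeq2 called 1 higher and 1 lower. None of 6 other tested collagen and laminin receptors was called (median 0.13) by edgeR's quasi-likelihood test or by DESeq2, and 0 had an unadjusted p under 0.05. In the whole table edgeR called 5.65% of genes higher and 4.93% lower at an adjusted p under 0.05, 11.7% were higher and 11.9% lower at an unadjusted p under 0.05, and DESeq2 called 5.73% in each direction.

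**Figure D4:**
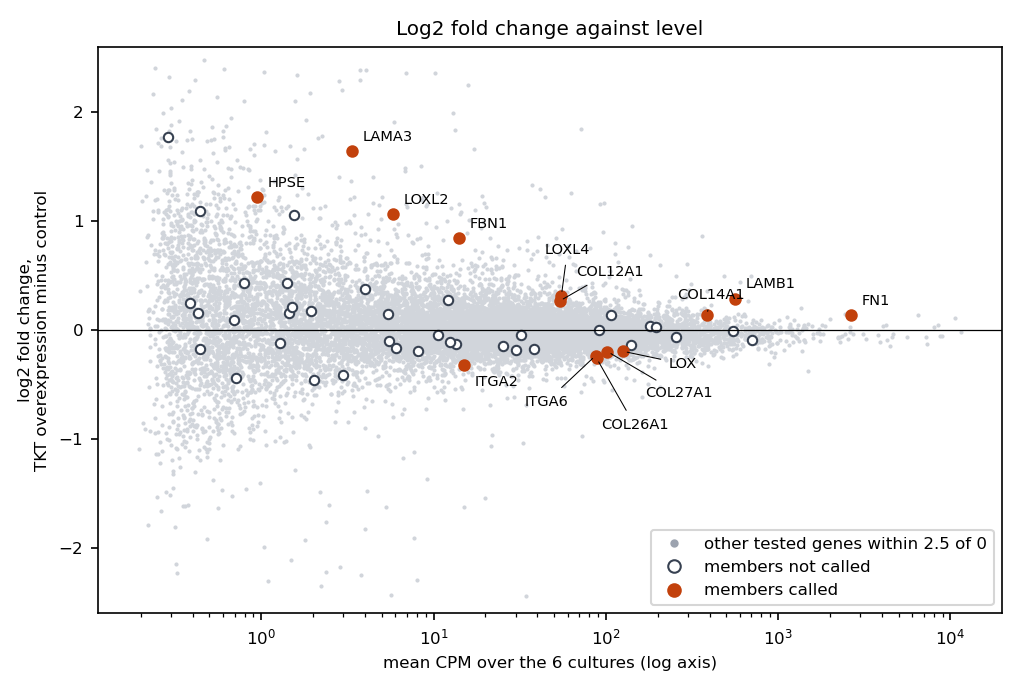
Log2 fold change (y axis) against mean CPM over the 6 cultures (x axis, log scale) for tested members and other tested genes (gray). TKT and 25 other genes beyond 2.5 are left out. Called members range from HPSE near 1 CPM to FN1 at 2640 CPM, and the gray cloud narrows as CPM rises.

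The remaining members had few counts. Of the 26 untested members, COL16A1 and ITGA11 had the most counts in total, with 46 and 43, and the tested members with the fewest were COL4A6 with 56 and LAMB4 with 77. Low counts in the table were more often even than odd. Of 24142 values from 1 to 9, 61.9% were even, against 50.2% of values of 1000 or more, and a count of 2 occurred 7006 times and a count of 1 3944 times. Whether both reads of a pair were counted is not given in the sources used here, so 10 counts may stand for fewer than 10 fragments.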

How the data were processed

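Total RNA of 6 cultures was sequenced as paired-end reads by the study. Per the submitters' processing notes the build was hg38 and the tools fastp 0.22.0 and HISAT2 2.1.0, and the methods name featureCounts. The authors deposited whole-number counts per gene symbol without normalization and FPKM values. Within 1%, the deposited FPKM are the counts times 1 factor per gene and library for 99.8% of the genes. The annotation, the strand setting and the treatment of reads that map to several places are not given in the sources used here.

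Genes with at least 10 counts in at least 3 of the 6 libraries were kept. They were scaled by TMM and tested in edgeR 4.0.16 (R 4.3.3, robust quasi-likelihood test, Benjamini-Hochberg adjustment over 14309 genes, no covariates). The common biological coefficient of variation was 0.113. Libraries held between 30148788 and 37096156 counts, and no pair looked like copies of 1 library. The 15 alternative fits were filterByExpr, no filter, median-of-ratios and upper-quartile scaling, DESeq2 1.42.0, a block for the replicate number, 6 fits that drop a culture, limma 3.58.1 on log2(FPKM + 1) and log2(FPKM + 0.1), and a length trend removed from each library. Stricter thresholds were also tried. The scripts were tested on simulated data.

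Named genes are TKT, the called members, the 10 members with the highest mean FPKM, FN1, FBN1, the lysyl oxidases, HPSE and ITGB1, chains assembling with a called member, the 2 tested members with the lowest and the 2 untested with the highest total, up to 4 called genes per list and direction, and the most abundant markers. Further genes were named after their values were seen, among them COL4A1, COL1A1, COL18A1, COL6A1, ITGA5, ITGAV, MFAP2, FGA, FGG and VTN. The members and lists were chosen with earlier results of these data known.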

Additional observations from a re-analysis of the deposited data

How the results depend on the processing

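All 14 called members kept the sign of their log2 fold change in the 15 alternative fits, where a fit gave a value, and 7 of them (LAMA3, LAMB1, FBN1, LOXL2, LOXL4, COL26A1 and ITGA6) were called in every fit. TKT was called in all 15. The number of members called higher lay between 6 and 9 with a culture left out, that of members called lower between 3 and 5, and that of members past an absolute log2 fold change of 1 between 1 and 3, with 793 to 1583 genes called over the whole table against 1515. With limma on log2(FPKM + 1), 6 members were higher, 2 lower and 0 past a log2 fold change of 1, with 824 genes called in all. On log2(FPKM + 0.1) these numbers were 6, 2, 1 and 829. A pseudocount shrinks the fold change of low genes by construction. With an absolute log2 fold change over 1 required, 3 members were higher and 0 lower, beside 0.748% of all tested genes. At an adjusted p under 0.01 in the main edgeR test, 6 were higher and 3 lower. The share over all genes at that threshold is not given here. LAMB2, COL4A1 and ITGB5, which were not called, passed the threshold in 4 of 15, 4 of 14 and 5 of 15 alternative fits.

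Replicate numbers do not pair the cultures. Deviations from the group means correlated at 0.0106, -0.0937 and 0.0525 between same-numbered cultures. With the replicate number as a block, 6 members were called higher and 2 lower, and 693 genes in all, with 2 degrees of freedom fewer. Of the 14 called members 8 were shared, and COL14A1, COL27A1, FN1, HPSE, ITGA2 and LOX were not called.

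Of the members at a mean of 10 CPM or under, 3 of 24 (12.5%) were called, beside 3.75% of all 5632 tested genes at that level, with wider SEs than above it. The counting of mates, the strand setting and reads shared with copies or overlapping genes were not tested. HPSE, at 16 to 52 counts, got no adjusted p from DESeq2. Of the 10 members highest in FPKM, 9 stayed in the top 10 with exon bases of GENCODE 29 as the length, an alternative chosen after the data were seen. ITGB1P1 has no length there, and ITGAV took its place.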

Other observations

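The deposited table assigns genes to pathways, and 43 of the 77 members carry the entry ECM-receptor interaction and 43 the entry Focal adhesion. Of the other tested genes with the entry ECM-receptor interaction, 4 of 20 were called higher and 2 lower by edgeR's quasi-likelihood test, with a median log2 fold change of -0.09. At an unadjusted p under 0.05, 5 were higher and 5 lower, and DESeq2 called 4 higher and 4 lower. Of the other tested genes with the entry Focal adhesion, 18 of 117 were called higher and 3 lower, with a median of 0.01. Here 23 were higher and 11 lower at an unadjusted p under 0.05, and DESeq2 called 17 higher and 5 lower. Over all genes tested, edgeR called 5.65% higher and 4.93% lower. At an unadjusted p under 0.05 these shares were 11.7% and 11.9%, and DESeq2 called 5.73% in each direction.

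Members took 0.6746%, 0.6527% and 0.6972% of the counts on TKT overexpression and 0.6383%, 0.6759% and 0.6122% in control, and these shares overlapped. By family, laminins summed to 1187, 1159 and 1212 CPM against 1071, 1117 and 1013 CPM, integrins to 1303, 1288 and 1320 CPM against 1362, 1438 and 1344 CPM, and collagens to 1283, 1269 and 1282 CPM against 1279, 1293 and 1231 CPM. The laminin sums did not overlap between the groups, nor did the integrin sums, while the collagen sums overlapped. Within each sum a few abundant genes set the value, LAMB1 for laminins, ITGB1 for integrins and COL5A2 and COL14A1 for collagens.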
